A study of Homo sapiens with 4 samples.

Results

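The E2F transcription factors were examined at the transcript level in OVCAR3 cells, which derive from the malignant ascites of a serous ovarian tumour of high grade, after the topoisomerase II poison etoposide. The family was taken as the 8 genes E2F1 to E2F8 with the dimer partners TFDP1 and TFDP2, that is 10 of the 60605 genes in the files. Members were found by their gene symbol in the annotation and not by their values, and all 10 passed the filter on low values that left 22185 genes to be tested. Libraries of mRNA were sequenced from cells treated with 1.7 µM etoposide for 24 h (2 libraries, called biological replicates 1 and 2 in their labels) and from cells that received the vehicle DMSO (2 libraries). By the treatment protocol, which makes no distinction between the groups, the cells had been held in 100 ng/mL nocodazole, a blocker of mitosis, for 16 h and released for 3 h before the drug was added. How the replicate cultures were kept apart is not given in the sources used here, so that the p-values measure the spread between these libraries. The model is 1 cell line, at 1 dose and 1 time.

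The E2F proteins bind DNA at a TTTSSCGC-like element (S being C or G) in the promoters of genes for the G1/S transition and DNA replication. E2F1, E2F2 and E2F3 are known as activators that are held in check by the retinoblastoma protein RB1, whereas E2F4 and E2F5 mostly act with the pocket proteins RBL1 (p107) and RBL2 (p130) as repressors. E2F6 lacks the pocket protein binding region and represses with Polycomb proteins, and the atypical E2F7 and E2F8 repress without a dimer partner. E2F1 to E2F6 bind DNA as heterodimers with DP1 (TFDP1) or DP2 (TFDP2). Phosphorylation of the pocket proteins by cyclin D and cyclin E kinases frees the activators, and several E2F genes are themselves E2F targets. Much of this control acts on proteins, which RNA levels do not show.

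The promoters of the members are shown first, because the family is known to regulate itself. RefSeq promoter windows (GRCh38.p14, 250 bases before to 50 after the gene start) were used for 8 of the 10 members, in 11 windows. E2F5 and E2F8 were not included. Each window was searched on both strands for TTTCGCGC, TTTGGCGC and GGCGGGAA, which were held by 0.515%, 0.652% and 3.16% of 35116 promoter windows, and 4.24% held at least 1 of them. E2F1, E2F2, E2F3 and TFDP1 held 1 match each, while E2F4, E2F6, E2F7 and TFDP2 held none. Below, only the stretch around the match is given for E2F1, E2F2, E2F3 and TFDP1, 5′ to 3′ on the strand of the gene. All stretches lie before the gene start, and matched letters are in capitals. Those of E2F2, E2F3 and TFDP1 end 13, 25 and 91 bases before the start. A stretch from the promoter of the pocket protein gene RBL1, which held 2 matches that do not overlap, is given likewise.
E2F1 (chr20:33686386-33686427, minus strand): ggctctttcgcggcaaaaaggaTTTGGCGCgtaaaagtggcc
E2F2 (chr1:23531246-23531297, minus strand): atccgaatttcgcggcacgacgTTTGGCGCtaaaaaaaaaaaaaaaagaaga
E2F3 (chr6:20401803-20401854, plus strand): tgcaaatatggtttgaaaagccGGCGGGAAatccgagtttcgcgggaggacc
TFDP1 (chr13:113584611-113584662, plus strand): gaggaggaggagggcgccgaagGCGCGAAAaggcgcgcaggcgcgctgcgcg
RBL1 (chr20:37095998-37096045, minus strand): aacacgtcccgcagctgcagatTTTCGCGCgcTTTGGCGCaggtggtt
The TTTGGCGC element began 20 bases before the start of E2F1 and 42 bases before that of E2F2. In E2F3 the GGCGGGAA element began 54 bases before the upstream start, which gives E2F3a, and the window at the downstream start (chr6:20403364-20403663), near that of E2F3b, held no match. The match in TFDP1 was to TTTCGCGC on the opposite strand, 120 bases before the start. A match describes letters in these windows and is no evidence of binding in these cells.

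Levels are given as FPKM, that is fragments scaled to transcript length and to the size of the library, summed over the annotated transcripts of a gene, and can thus be compared between genes. The mapped bases behind the files equal 47687000 and 58513000 read pairs in the etoposide libraries and 64473000 and 66501000 in the DMSO libraries. The family spanned a wide range. E2F4 and TFDP1 were the highest, above 94.1% and 93.2% of the genes tested, and E2F2 was the lowest, above 45.8%. In order of the mean over all 4 libraries the genes ran E2F4, TFDP1, E2F1, TFDP2, E2F3, E2F5, E2F6, E2F8, E2F7 and E2F2. E2F1 and TFDP2 overlapped within each treatment. E2F8 overlapped E2F5 in etoposide and E2F3 in DMSO, while E2F3, E2F5 and E2F6 formed a continuous range in DMSO. E2F7 and E2F2 stood below all others in every library. The estimated fragments behind a member ranged between 460 for E2F2 and 8430 for TFDP2 in a library.

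Etoposide was set against DMSO with limma on log2(FPKM + 0.1), and p-values were adjusted over all 22185 genes by the Benjamini-Hochberg method. No member passed an adjusted p of 0.05 (0 of 10, the smallest being 0.363), nor did any gene of the whole table (0%, the smallest adjusted p being 0.169, while limma's voom on estimated fragments called 1 gene), so that the values below describe differences that were not called. At an unadjusted p under 0.05 there were 2 members with higher values (E2F2 and E2F8) and 1 with lower values (E2F6), where 7.06% and 4.85% of all genes were higher and lower at that level. Both etoposide libraries lay above both DMSO libraries in 7 of the 10 members, against 28.9% of all genes, and below them in 2 members, E2F5 and E2F6, against 19.0%. The median log2 fold change was 0.207 over the members and 0.036 over all genes tested. An exact permutation test of 2 libraries against 2 cannot give a two-sided p below 0.333, and was therefore not used. In bulk RNA such as this, fewer cells of a cell-cycle stage and less RNA per cell cannot be told apart.

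**Figure D1:**
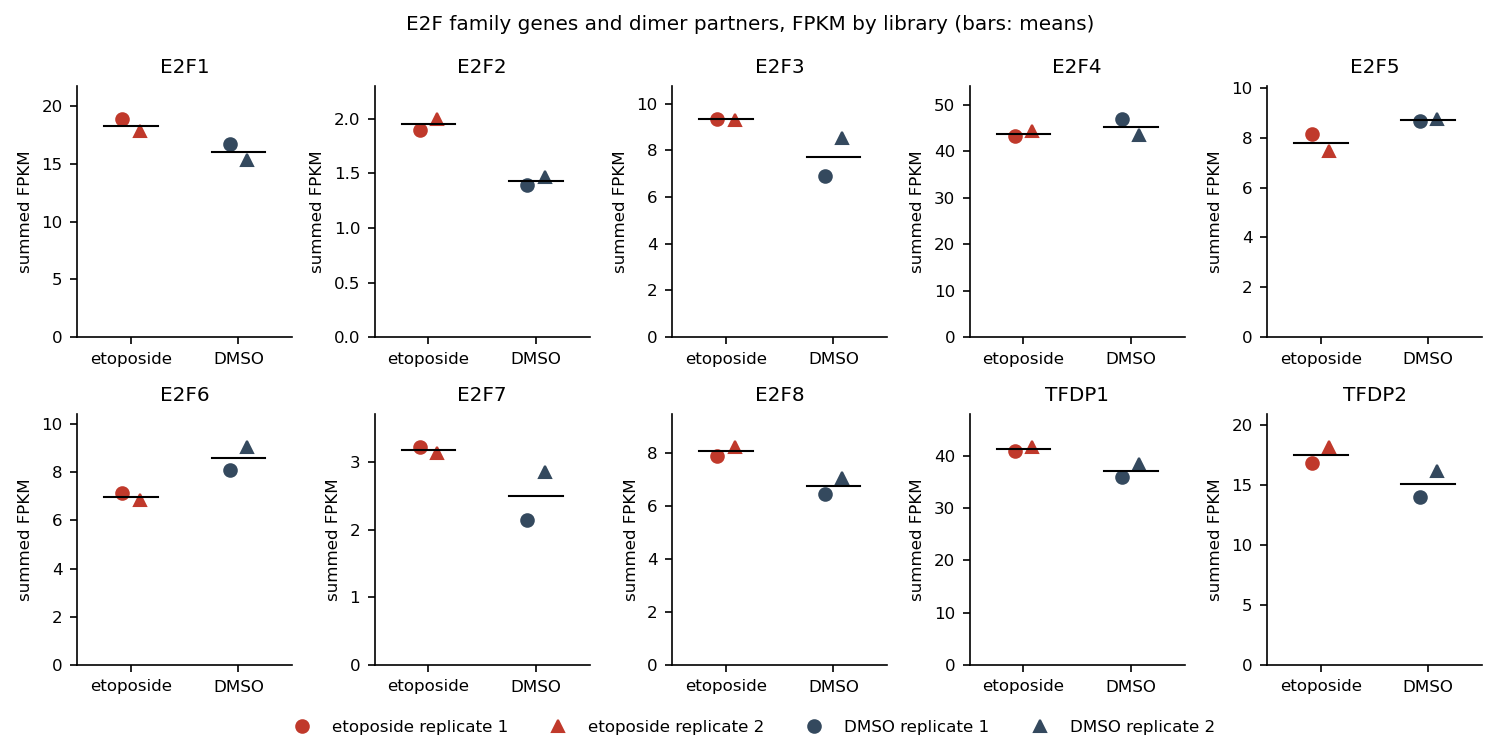
Summed FPKM (vertical axes, each from 0) of the 10 genes in the etoposide libraries (red) and the DMSO libraries (dark), with circles for replicate 1, triangles for replicate 2 and bars for the means of 2 libraries. The etoposide points lie above both DMSO points in 7 genes and below them in E2F5 and E2F6, and they overlap in E2F4.

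Among the activators, E2F1 (chr20:33675477-33686385, minus strand), the member best known for driving both S phase entry and apoptosis, had 18.9 and 17.8 FPKM in etoposide against 16.7 and 15.3 FPKM in DMSO. The means were 18.3 ± 0.731 and 16.0 ± 0.996 (SD, n = 2 each). The libraries did not overlap, and the log2 fold change was 0.20 ± 0.09 (SE, limma adjusted p = 0.435). E2F1 has a single annotated transcript, so that its level does not depend on how reads were shared among isoforms. Exon coverage was followed in segments, stretches of at least 30 bases that belong to the same transcripts, with a mean coverage of at least 1. Of the 7 segments of E2F1, 5 were higher in both etoposide libraries, and the first exon, with 5.83 and 5.70 in etoposide against 5.88 and 4.92 in DMSO on the FPKM scale, was among those that overlapped.

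E2F2 (chr1:23506438-23531233, minus strand), an activator that is low in many cell types, was the member with the smallest unadjusted p. It had 1.90 and 2.00 FPKM in etoposide against 1.39 and 1.47 FPKM in DMSO. Replicates lay close together here, and the groups did not overlap. The log2 fold change was 0.42 ± 0.13 (SE, 95% confidence interval 0.10 to 0.74, limma adjusted p = 0.363), or 34.0% higher on that scale. All 5 of its exon segments with a mean coverage of at least 1 were higher in both etoposide libraries. The last exon had 2.04 and 2.11 in etoposide against 1.59 and 1.59 in DMSO. An upstream exon of 220 bases had 1.76 and 2.66 in etoposide against 0.712 and 1.34 in DMSO. Below that coverage, the first exon was also higher in both, but an exon of 106 bases overlapped. The latter had 0.261 and 1.87 in etoposide against 0.225 and 1.16 in DMSO.

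The profile of E2F2 over the 4 libraries was used to find the genes most like it, by the Euclidean distance of centred log2 values among 12745 genes with a mean of at least 1 FPKM. The nearest were DDHD2, a phospholipase (distance 0.0216), the pseudogene BMS1P17 (0.0234) and MCM3 (0.0254), a subunit of the replicative helicase. MCM3 had 47.0 and 48.2 FPKM in etoposide against 34.4 and 36.3 FPKM in DMSO. With 4 libraries, 85 genes lay within a distance of 0.1, so that this likeness is a weak description.

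E2F3 (chr6:20401879-20493714, plus strand) is transcribed from a pair of promoters. The upstream one gives E2F3a, the form best known as an activator, and the other, within the first intron, gives E2F3b. Summed over both, E2F3 had 9.36 and 9.30 FPKM in etoposide against 6.91 and 8.55 FPKM in DMSO. The etoposide libraries were nearly equal while the DMSO libraries were 0.30 apart on the log2 scale, about as much as the difference between the groups, which was 0.28 ± 0.12 (SE, limma adjusted p = 0.435). E2F3 was the only member that passed under any of the 19 alternatives that were run, when DMSO replicate 2 was left out (log2 fold change 0.43, limma adjusted p = 0.0391), a setting in which 1934 genes of the whole table passed. Without DMSO replicate 1, its log2 fold change was 0.13.

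The signal of E2F3 was divided between the transcripts of these promoters. E2F3-201, the E2F3a transcript, with a first exon of 747 bases, had 5.65 and 5.32 FPKM in etoposide against 3.48 and 4.25 FPKM in DMSO. Its libraries did not overlap, and its log2 fold change was 0.50 ± 0.19 (SE, limma adjusted p = 0.848 over 71340 transcripts). E2F3-202, the E2F3b transcript, with a first exon of 154 bases, had 3.71 and 3.98 FPKM in etoposide against 3.43 and 4.30 FPKM in DMSO, a log2 fold change of 0.00 ± 0.20 (SE). E2F3a thus made up 60.3% and 57.2% of the E2F3 signal in etoposide against 50.4% and 49.7% in DMSO. These shares depend on how shared reads were assigned to the transcripts. The difference between the transcripts was not tested.

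The first exons are the parts of these transcripts that are not shared. Coverage of the E2F3a first exon, on the FPKM scale, was 3.51 and 3.23 in etoposide against 1.79 and 2.07 in DMSO. That of the E2F3b first exon was 1.44 and 1.19 in etoposide against 0.853 and 1.21 in DMSO. The E2F3a exon had more coverage than the E2F3b exon in every library, also in DMSO, where the FPKM of the transcripts were similar. The log2 ratio of means was 0.77 for the E2F3a exon, which was higher in both etoposide libraries, and 0.32 for the E2F3b exon, which overlapped. First exons had far less coverage than the last exon of the gene, which had 9.82 and 9.82 in etoposide against 7.67 and 9.19 in DMSO.

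**Figure D2:**
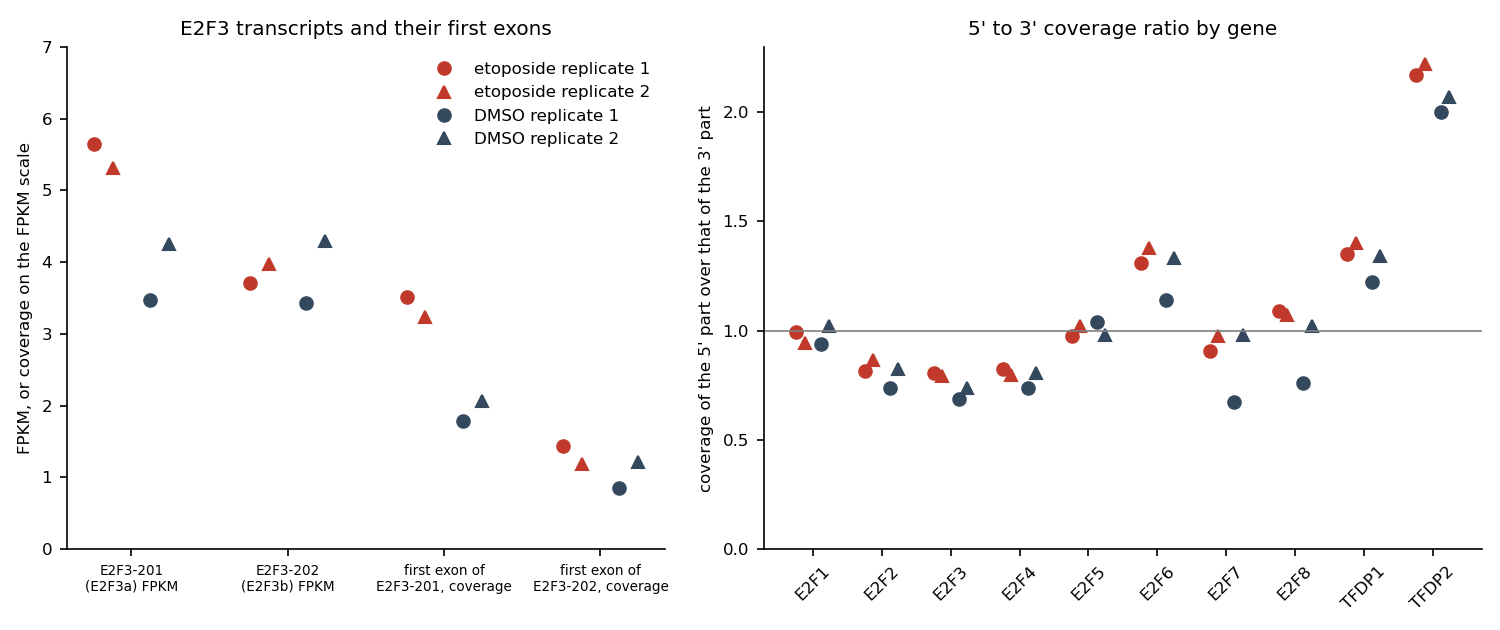
Left, FPKM of the E2F3a and E2F3b transcripts and coverage of their first exons on the FPKM scale, by library. Right, coverage of the 5′ part of each gene's main transcript divided by that of its 3′ part. The E2F3a points are separated by treatment (5.65 and 5.32 against 3.48 and 4.25 FPKM) and the E2F3b points are not, and DMSO replicate 1 (dark circles) has the lowest ratio in 9 of the 10 genes.

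Of the repressors that work with pocket proteins, E2F4 (chr16:67192155-67198918, plus strand), the main E2F of the DREAM complex, was the most abundant member and, on summed FPKM, the one that differed least between treatments. It had 43.2 and 44.3 FPKM in etoposide against 47.0 and 43.4 FPKM in DMSO. The groups overlapped, and its log2 fold change of −0.05 ± 0.08 (SE, 95% confidence interval −0.24 to 0.14, limma adjusted p = 0.821) became 0.021 with TPM, 0.004 after a correction for length and GC content and 0.012 without DMSO replicate 1. E2F4 alone made up 62.1% and 63.3% of the summed FPKM of E2F4 to E2F8 in etoposide against 65.0% and 61.0% in DMSO.

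This sum holds several transcripts, most of which are not annotated as protein-coding (11 of 13). The protein-coding transcript E2F4-201 had 18.0 and 19.0 FPKM in etoposide against 15.5 and 15.5 FPKM in DMSO (log2 fold change 0.25 ± 0.11, SE, limma adjusted p = 0.848). The retained-intron transcript E2F4-208 had 17.1 and 14.3 FPKM in etoposide against 23.1 and 18.1 FPKM in DMSO (log2 fold change −0.38 ± 0.19, SE). Both sets of libraries were separated, in opposite directions, but these FPKM depend on how shared reads were assigned to transcripts. A segment of 132 bases that belongs to E2F4-208 alone overlapped between the treatments. Its coverage was 8.09 and 6.05 in etoposide against 9.66 and 7.93 in DMSO on the FPKM scale. Protein-coding transcripts accounted for 41.7% and 43.0% of E2F4 in etoposide against 33.0% and 35.8% in DMSO. Of 21 exon segments of E2F4, 4 were higher and 4 lower in both etoposide libraries, and 13 overlapped.

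E2F5 (chr8:85177154-85217158, plus strand), the partner of RBL2 in quiescent and differentiating cells, had 8.16 and 7.45 FPKM in etoposide against 8.68 and 8.76 FPKM in DMSO. It was lower in both etoposide libraries, with a log2 fold change of −0.16 ± 0.10 (SE, limma adjusted p = 0.508). Its 3 main transcripts, E2F5-203, E2F5-201 and E2F5-202, each overlapped between the treatments. Of its exon bases, 997 of 5999 lie opposite exons of RBIS, a ribosome biogenesis factor read from the other strand at 38.9 and 39.6 FPKM in etoposide and 46.6 and 38.8 FPKM in DMSO. Reads had been assigned without a strand option, so that the level of E2F5 may hold reads of RBIS.

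E2F6 (chr2:11444375-11466177, minus strand) was the member for which the choice of quantity mattered most. Its summed FPKM was lower in both etoposide libraries, at 7.12 and 6.84 FPKM in etoposide against 8.09 and 9.07 FPKM in DMSO (log2 fold change −0.29 ± 0.10, SE, limma adjusted p = 0.391). Counted as estimated fragments scaled to the library, without division by transcript length, the log2 fold change was 0.07, as coverage of its main transcript E2F6-211 it was 0.08, and as coverage of the 3′ part of that transcript it was 0.00. These quantities do not depend, or depend less, on which transcripts the reads were assigned to.

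The assignment differed widely between the treatments. The protein-coding E2F6-211, of 3450 bases, had 5.80 and 5.81 FPKM in etoposide against 1.67 and 0.339 FPKM in DMSO. The shorter E2F6-205, of 1253 bases and annotated as a target of nonsense-mediated decay, had 0.247 and 0.349 FPKM in etoposide against 1.91 and 2.14 FPKM in DMSO. E2F6-211 had a log2 fold change of 2.74 ± 0.77 (SE, limma adjusted p = 0.792) and E2F6-205 one of −2.42 ± 0.28 (SE, limma adjusted p = 0.361).

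Of the 8 E2F6 transcripts tested (12 are annotated), 6 were lower in both etoposide libraries and 1, E2F6-211, was higher, where 16.1% and 21.4% of all transcripts were lower and higher in that way. E2F6-204 was listed at 0.00 and 0.00752 FPKM in etoposide and at 0.00 and 3.30 FPKM in DMSO, so that nearly all of it stood in DMSO replicate 2. In all, 41 of the 83 member transcripts passed the filter, of which 16 were higher and 9 lower in both etoposide libraries. None of the 41 passed an adjusted p of 0.05 (0% of all transcripts did), and the 5 with an unadjusted p under 0.05, against 5.78% of all transcripts, all belonged to E2F6. As protein-coding transcripts, 84.6% and 85.7% of the E2F6 sum was assigned in etoposide against 58.0% and 19.1% in DMSO, so that the DMSO replicates were themselves far apart.

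Exon coverage, summed over transcripts, was closer between the treatments in most segments. The last exon segment, of 925 bases, had 5.45 and 5.15 in etoposide against 5.43 and 5.13 in DMSO on the FPKM scale. Of 15 segments, 10 overlapped between the treatments, 3 were higher and 2 lower in both etoposide libraries. The largest difference among those lower was in a segment of 47 bases, near the 3′ end of E2F6-205, with 5.78 and 5.62 in etoposide against 8.45 and 8.21 in DMSO. A segment of 71 bases just under the coverage minimum, in 4 transcripts, had 1.29 and 1.55 in etoposide against 0.604 and 0.412 in DMSO, a log2 ratio of means of 1.32. Processed pseudogenes of E2F6 were also read, E2F6P1 at 0.984 and 0.988 FPKM in etoposide against 0.882 and 1.07 FPKM in DMSO. E2F6P2 had 0.418 and 0.507 FPKM in etoposide against 0.539 and 0.514 FPKM in DMSO, E2F6P3 had 0.448 and 0.465 FPKM in etoposide against 0.456 and 0.492 FPKM in DMSO, and reads of E2F6 and its copies may have been mixed.

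**Figure D3:**
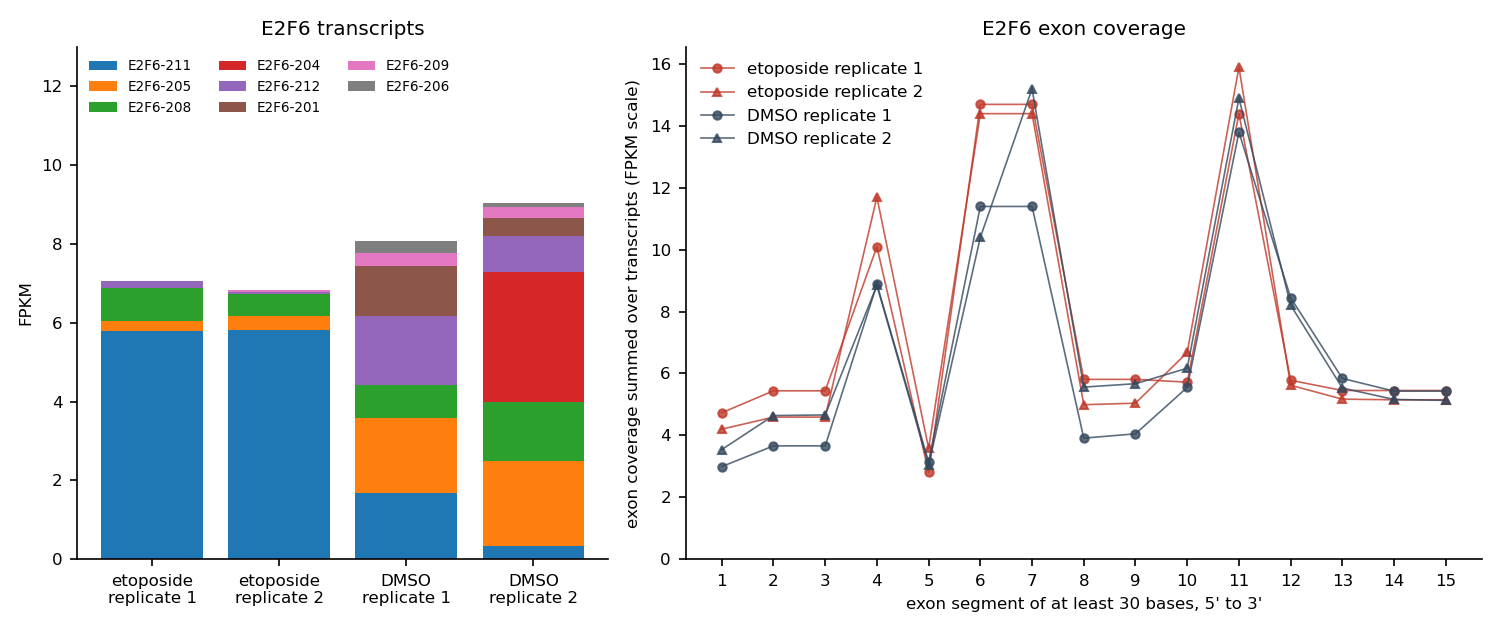
Left, FPKM of the 8 tested E2F6 transcripts, stacked for each library. Right, coverage of E2F6 exon segments from 5′ to 3′, summed over transcripts, on the FPKM scale. E2F6-211 makes up most of the etoposide bars (5.80 and 5.81 FPKM) and little of the DMSO bars (1.67 and 0.339 FPKM), while the coverage of the last segment is between 5.13 and 5.45 in all 4 libraries.

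The atypical repressors, which switch off E2F targets after S phase and are E2F targets themselves, were both higher in etoposide. E2F7 (chr12:77021248-77065569, minus strand) had 3.23 and 3.14 FPKM in etoposide against 2.15 and 2.85 FPKM in DMSO (log2 fold change 0.35 ± 0.16, SE, limma adjusted p = 0.436). E2F8 (chr11:19224063-19241620, minus strand) had 7.89 and 8.24 FPKM in etoposide against 6.43 and 7.06 FPKM in DMSO (log2 fold change 0.26 ± 0.10, SE, limma adjusted p = 0.406). In both genes DMSO replicate 1 was the lowest library.

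Coverage along these genes was uneven in that library. The 5′ part of the E2F7 transcript had 0.905 and 0.977 times the coverage of its 3′ part in etoposide against 0.673 and 0.979 times in DMSO. For E2F8 the ratios were 1.09 and 1.07 in etoposide against 0.762 and 1.02 in DMSO. DMSO replicate 1 had the lowest ratio in 9 of the 10 members, E2F5 being the exception, and over 8323 genes the median ratio was 1.02 and 1.01 in etoposide against 0.918 and 1.02 in DMSO. On the 3′ part alone, the log2 fold change was 0.24 for E2F7 and 0.11 for E2F8, both lower than on summed FPKM. Without DMSO replicate 1, it was 0.15 for E2F7 and 0.19 for E2F8. The assignment to transcripts also differed between replicates of E2F7, since E2F7-202 had 1.96 and 0.0834 FPKM in etoposide against 1.40 and 0.105 FPKM in DMSO, high in replicate 1 of both treatments.

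Both dimer partners were higher in etoposide by a small margin on summed FPKM, though TFDP2 was not on the coverage of its 3′ part. TFDP1 (chr13:113584721-113641473, plus strand), the main DP gene in most cells, had 41.0 and 41.8 FPKM in etoposide against 35.9 and 38.4 FPKM in DMSO, with a log2 fold change of 0.16 ± 0.08 (SE, limma adjusted p = 0.451). Of its 18 exon segments, 13 were higher in both etoposide libraries and 0 lower in both. Its pseudogene TFDP1P2 had 0.580 and 0.659 FPKM in etoposide against 0.494 and 0.643 FPKM in DMSO, far below the gene. TFDP2 (chr3:141944428-142149544, minus strand) had 16.8 and 18.2 FPKM in etoposide against 14.0 and 16.2 FPKM in DMSO, with a log2 fold change of 0.22 ± 0.10 (SE, limma adjusted p = 0.452).

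As with E2F6, the difference in TFDP2 depended on the quantity. It was 0.06 on estimated fragments scaled to the library and −0.01 on the coverage of the 3′ part of its main transcript. The short transcript TFDP2-212, of 2360 bases, had 2.77 and 4.33 FPKM in etoposide against 0.919 and 2.11 FPKM in DMSO. The long TFDP2-215, of 9880 bases, made up 31.7% and 33.1% of the TFDP2 sum in etoposide against 41.5% and 61.8% in DMSO. TFDP2-224, also long at 9335 bases, made up 41.2% and 33.1% in etoposide against 43.0% and 13.7% in DMSO. The DMSO replicates were thus far apart in both transcripts, in opposite directions.

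**Figure D4:**
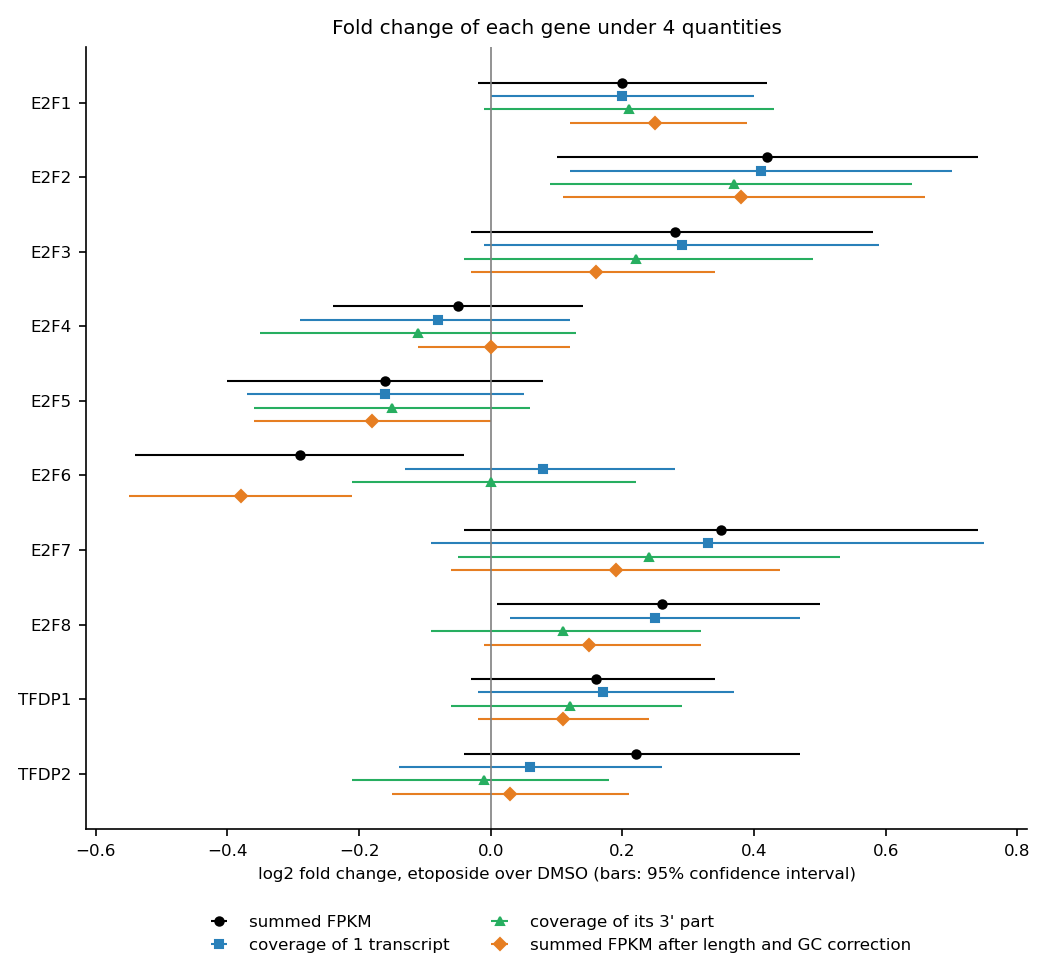
Log2 fold change of each gene, etoposide over DMSO, from summed FPKM, from the coverage of 1 transcript, from that of its 3′ part and from summed FPKM after a correction for length and GC content, with 95% confidence intervals. E2F6 lies at −0.29 on summed FPKM, at −0.38 after the correction and at 0.08 and 0.00 on coverage, while E2F2 lies between 0.37 and 0.42 in all 4.

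The activators were then set against the repressors as sums of FPKM. E2F1 to E2F3 summed to 30.1 and 29.1 FPKM in etoposide against 25.0 and 25.3 FPKM in DMSO. E2F4 to E2F8 summed to 69.6 and 70.0 FPKM in etoposide against 72.4 and 71.1 FPKM in DMSO. The activators were higher in both etoposide libraries. The repressors were lower in both, but overlapped on the coverage of 1 transcript per gene, where they summed to 65.6 and 64.3 in etoposide against 68.1 and 64.2 in DMSO. These sums hold transcripts not annotated as protein-coding. On protein-coding transcripts alone, E2F4 had 18.0 and 19.1 FPKM in etoposide against 15.5 and 15.5 FPKM in DMSO. E2F6, E2F7 and E2F8 were likewise higher in both etoposide libraries on such transcripts, and E2F5 was lower in both. The split by transcript type depends on how shared reads were assigned. Over all transcripts, the total of E2F1 to E2F8 was 99.7 and 99.1 FPKM in etoposide against 97.3 and 96.4 FPKM in DMSO.

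As a share of that total, the activators made up 30.2% and 29.4% in etoposide against 25.7% and 26.2% in DMSO, with means of 29.8% ± 0.567 and 25.9% ± 0.405 (SD, n = 2 each). The difference of 3.85 percentage points is given as a description, without a test. It was 3.78 points when the coverage of 1 transcript per gene replaced the sums. Both values include reads of transcripts not annotated as protein-coding. The share on protein-coding transcripts alone was not calculated, and most repressors were higher in etoposide on those. E2F1 carried most of the activator sum (62.6% and 61.2% in etoposide against 66.8% and 60.4% in DMSO) and E2F4 most of the repressor sum. The difference in share is not theirs alone. Mean FPKM of E2F3 was 9.33 in etoposide against 7.73 in DMSO, and that of E2F6 was 6.98 against 8.58. For E2F1 the means were 18.3 and 16.0, and for E2F4 they were 43.8 and 45.2. On the coverage of 1 transcript, E2F6 was instead higher in both etoposide libraries, with 6.31 and 6.14 in etoposide against 5.81 and 5.99 in DMSO. The grouping does not follow the differences of the single genes, since E2F7 and E2F8, counted with the repressors, were higher in etoposide like the activators. TFDP1 and TFDP2 together summed to 57.7 and 60.1 FPKM in etoposide against 49.9 and 54.6 FPKM in DMSO.

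The pocket proteins that bind the E2F factors were all at higher mean levels in etoposide. RBL1, the p107 gene whose promoter is shown above, had 5.90 and 6.23 FPKM in etoposide against 3.49 and 4.66 FPKM in DMSO (log2 fold change 0.57 ± 0.15, SE, limma adjusted p = 0.337). RB1 had 10.3 and 10.4 FPKM in etoposide against 6.73 and 9.69 FPKM in DMSO (log2 fold change 0.35 ± 0.17, SE, limma adjusted p = 0.455). RBL2 had 6.70 and 6.78 FPKM in etoposide against 5.13 and 6.78 FPKM in DMSO and overlapped. In each of the 3 genes DMSO replicate 1 was the lowest library, and its ratio of 5′ to 3′ coverage was the lowest too, for RB1 0.694 in that library against 1.00 in DMSO replicate 2. Without DMSO replicate 1 the log2 fold change was 0.37 for RBL1, 0.093 for RB1 and −0.0071 for RBL2, and without DMSO replicate 2 it was 0.78 for RBL1 and 0.61 for RB1 (both with a limma adjusted p of 0.0333).

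Known targets of the family were described by lists, of which none held a gene at an adjusted p under 0.05 and a few share genes, such as CDC25A, CCNE1 and CDC20. Of 41 S phase genes that activator E2Fs are known to switch on, 39 had a log2 fold change above 0, 36 were higher in both etoposide libraries (28.9% of all genes were) and 0 lower in both, and the median was 0.30 against 0.036 over all genes. At an unadjusted p under 0.05, 32 of the 41 were higher, where 7.06% of all genes were. CDT1, which loads the helicase onto origins, had 7.35 and 7.27 FPKM in etoposide against 4.93 and 4.75 FPKM in DMSO (log2 fold change 0.59). CDC6, its partner in loading, had 10.8 and 10.7 FPKM in etoposide against 6.66 and 7.47 FPKM in DMSO (0.60). CDC25A, the phosphatase that activates CDK2, had 11.8 and 10.8 FPKM in etoposide against 7.14 and 7.77 FPKM in DMSO (0.59). With MCM3 these had the smallest p-values of the list, at limma adjusted p-values of 0.267 each, and the median of the list was 0.24 on the coverage of the 3′ part and 0.26 without DMSO replicate 1.

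Of 22 G2/M genes that the DREAM complex of E2F4, a pocket protein and MuvB is known to repress, 21 had a log2 fold change below 0, 14 were lower in both etoposide libraries (19.0% of all genes were) and 1, the kinase CDK1, was higher in both, a gene named after its values were seen. The median was −0.27, and 13 were lower at an unadjusted p under 0.05, where 4.85% of all genes were. KIF20A, a kinesin of cytokinesis, had 18.3 and 17.3 FPKM in etoposide against 28.8 and 31.5 FPKM in DMSO (log2 fold change −0.76, limma adjusted p = 0.169). AURKA, a spindle kinase, had 43.8 and 42.5 FPKM in etoposide against 63.2 and 60.8 FPKM in DMSO (−0.52). CCNB1, the mitotic cyclin, had 75.3 and 75.4 FPKM in etoposide against 103 and 97.3 FPKM in DMSO (−0.41). CDC20, the mitotic activator of the anaphase-promoting complex, had 57.3 and 56.6 FPKM in etoposide against 87.6 and 78.6 FPKM in DMSO (−0.54). Without DMSO replicate 1, the median of the list was −0.27.

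**Figure D5:**
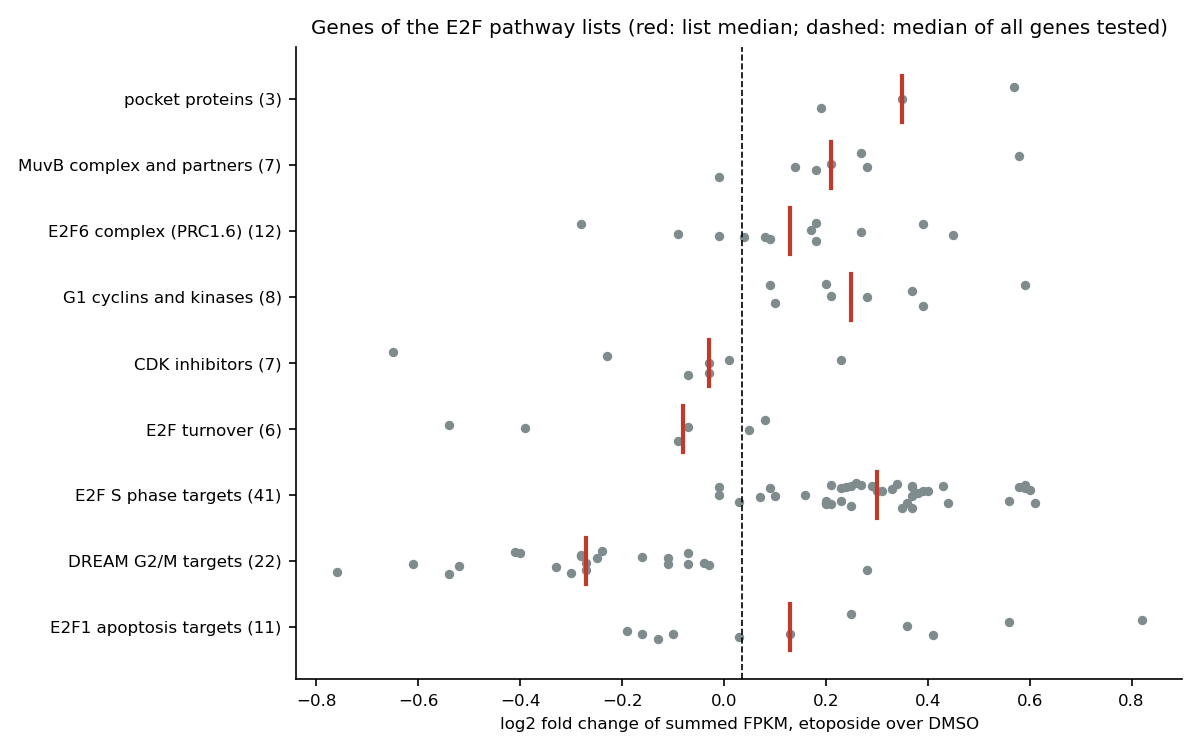
Log2 fold change of summed FPKM, etoposide over DMSO, for each tested gene (grey points) of 9 lists around the E2F family, with the number of genes tested in parentheses. The median (red) is 0.30 for the S phase targets and −0.27 for the G2/M targets, against 0.036 for all genes tested (dashed).

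Upstream of the family, all 8 tested G1 cyclins and kinases had a log2 fold change above 0 (median 0.25), as did 56.2% of all genes, and 6 were higher in both etoposide libraries, as were 28.9% of all genes. CDK2, the partner of cyclin E, had 24.8 and 25.4 FPKM in etoposide against 18.9 and 19.3 FPKM in DMSO (log2 fold change 0.39, limma adjusted p = 0.269). CCND1, cyclin D1, had 57.7 and 56.5 FPKM in etoposide against 44.0 and 49.8 FPKM in DMSO, and CCNE1, cyclin E1, had 62.0 and 64.1 FPKM in etoposide against 54.3 and 54.6 FPKM in DMSO. CCND2 was at or near 0 in all 4 libraries and was not tested.

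Among the 7 CDK inhibitors, which keep the pocket proteins active, 2 were above 0 and 5 below, with a median of −0.03 that was 0.03 with TPM. CDKN2C (p18) had 0.809 and 0.912 FPKM in etoposide against 1.44 and 1.37 FPKM in DMSO (log2 fold change −0.65). CDKN2A, which encodes p16, had 213 and 207 FPKM in etoposide against 261 and 233 FPKM in DMSO. CDKN2B (p15) had 11.5 and 11.0 FPKM in etoposide against 8.59 and 10.7 FPKM in DMSO, and CDKN2D (p19) overlapped. CDKN1A, the p53 target p21, was low in both groups, with 1.70 and 1.80 FPKM in etoposide against 1.90 and 1.69 FPKM in DMSO, and was named after its values were seen.

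Of 7 genes of the MuvB complex and its partners MYBL2 and FOXM1, 5 were higher in both etoposide libraries and 0 lower in both (28.9% and 19.0% of all genes were), with a median of 0.21. LIN54, the DNA-binding subunit, had 6.33 and 8.01 FPKM in etoposide against 4.37 and 5.13 FPKM in DMSO (log2 fold change 0.58, limma adjusted p = 0.332). LIN9, RBBP4 and MYBL2 had log2 fold changes of 0.27, 0.28 and 0.21. Of 6 genes for the turnover of E2F proteins, 2 were lower in both etoposide libraries, CDC20 (above) and CCNF, the cyclin F that targets activator E2Fs for degradation, with 7.08 and 6.75 FPKM in etoposide against 9.23 and 8.94 FPKM in DMSO (log2 fold change −0.39). CCNA2 and FBXO5 overlapped.

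The label of the cells was checked against defining genes. Serous carcinoma markers were present in every library, with PAX8 at 222 and 214 FPKM in etoposide against 258 and 248 FPKM in DMSO. The 9 such markers summed to 2370 and 2440 FPKM in etoposide against 3390 and 3020 FPKM in DMSO. Of these markers, 6 were lower in both etoposide libraries, as were 19.0% of all genes. KRT8, KRT18, KRT7 and WFDC2 were among them, at log2 fold changes of −0.54, −0.51, −0.27 and −0.33. EPCAM was higher in both, as were 28.9% of all genes, while WT1 and CDH1 overlapped. For EPCAM the values were 127 and 134 FPKM in etoposide against 124 and 125 FPKM in DMSO. Markers of other cells were low. The 7 leukocyte markers summed to 1.17 and 1.19 FPKM in etoposide against 1.58 and 1.27 FPKM in DMSO, with MS4A1 at 0 in all 4 libraries and CD14 the highest. The 7 fibroblast markers summed to 8.71 and 8.46 FPKM in etoposide against 7.29 and 7.47 FPKM in DMSO, mostly COL1A1, with DCN and COL3A1 near 0. The 6 endothelial markers summed to 5.42 and 5.31 FPKM in etoposide against 4.69 and 5.81 FPKM in DMSO, mostly KDR, with PECAM1 and CDH5 near 0. The part of these genes in the results was not tested.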

How the data were processed

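RNA of 2 etoposide treated and 2 DMSO treated OVCAR3 libraries was read as pairs of 100 bases from a stranded mRNA kit. Per the labels and the methods of the study, the authors used HISAT2 with GRCh38 for alignment and StringTie 2.1.7 with the transcripts of Ensembl release 104, without a strand option and without new transcripts. The other values the deposited files hold are a coverage, an FPKM and a TPM for each of 236853 transcripts, and a coverage for each exon. No counts were used. FPKM were summed per gene, and log2(FPKM + 0.1) was tested in limma 3.58.1 (R 4.3.3), with a variance trend and robust moderation, for genes or transcripts with a mean FPKM of at least 0.1. A fold change on this scale understates that of low genes. Estimated fragments are coverage times length over 200 bases, and intervals cover the spread between libraries. Coverage of 1 transcript is that of the exons of the gene's main transcript, summed over all transcripts of the gene, and its 5′ and 3′ parts are divided at the midpoint. Medians of the 5′ to 3′ ratio cover tested genes with a transcript of at least 2000 bases and a 3′ coverage over 1 in every library. Transcript types came from GENCODE release 44. The tests were tested on simulated data.

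The members and the lists were chosen with earlier results of these data known. The text names all members, of their 28 transcripts with a mean FPKM of at least 0.5 those on which a result turns, pseudogenes of members with at least 0.1 FPKM, the 3 pocket protein genes, up to 4 genes of each list with the smallest unadjusted p, and the 3 genes with the profile nearest to the member with the smallest p; others are named as chosen later or as markers. A gene that the rule would name is not reported here. The alternatives were other pseudocounts (1 and 0.01), filters and scalings, TPM, voom, a loess correction for length and GC content (span 0.3), no trend, a block for the replicate number and the omission of 1 library at a time. Estimated fragments scaled to the library, both coverages and the block with the correction were chosen after seeing the data. Figures were drawn with matplotlib 3.10.9 in Python 3.11.15.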

Additional observations from a re-analysis of the deposited data

How the results depend on the processing

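Over 19 alternatives, 180 of 190 values of the 10 members kept their direction and their side of an adjusted p of 0.05. E2F4 turned to 0.021 with TPM, 0.004 with the length and GC correction, alone and with the replicate block, and 0.012 without DMSO replicate 1, with −0.10 to 0.012 when a library was left out. E2F6 turned to 0.074 on estimated fragments scaled to the library and with voom, and to 0.076 and 0.004 on the coverage of 1 transcript and of its 3′ part, where TFDP2 turned to −0.015. Without DMSO replicate 1, RBL2 turned to −0.0071, with up to 0.39 without DMSO replicate 2. E2F3, RB1 and RBL1 passed without DMSO replicate 2 only. Genes at an adjusted p under 0.05 numbered 0 in the main analysis, against 4 with the length and GC correction, 1 with voom, 8 on these fragments, 2 on the coverage of the 3′ part, and 5 (without DMSO replicate 1) to 1934 (without DMSO replicate 2) when a library was left out. Of the members, 0 to 1 passed when a library was left out. A lone library left in a group takes its spread from the other group. Of the 22185 genes tested, 2643 had an unadjusted p under 0.05. The share of activators, with all transcripts counted, differed by 3.45 to 4.26 points when a library was left out.

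With the replicate number as a block, 0 genes and 0 members passed. The deviations of same-numbered libraries correlated at 0.0133, and the numbers were not taken to pair the cultures. Differences between the DMSO replicates correlated with transcript length (rho 0.307) and GC content (−0.337) across genes, which are not independent replicates. Those between etoposide and DMSO did so at 0.191 and −0.286. After the correction the log2 fold change was smaller in size for TFDP2 (0.03), E2F3 (0.16), E2F7 (0.19), E2F8 (0.15), RB1 (0.16) and RBL2 (0.05). It was also smaller for TFDP1 (0.11), E2F2 (0.38) and RBL1 (0.39), but larger in size for E2F1 (0.25), E2F5 (−0.18) and E2F6 (−0.38). Depth limits E2F2 most, with 460 estimated fragments in its shallowest library.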

Other observations

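The list of the Polycomb complex that contains E2F6 (PRC1.6) held 8 of 12 that were higher in both etoposide libraries (28.9% of all genes were), 1 lower in both (19.0% were) and 3 that overlapped. No gene of the list passed an adjusted p of 0.05, and the median log2 fold change was 0.13, or 0.03 on the coverage of the 3′ part. PCGF6, the subunit that defines the complex, had 4.73 and 5.08 FPKM in etoposide against 3.61 and 3.84 FPKM in DMSO (log2 fold change 0.39, limma adjusted p = 0.342). RNF2, its ubiquitin ligase, had 12.5 and 12.6 FPKM in etoposide against 9.71 and 11.1 FPKM in DMSO. MGA, which binds DNA with MAX, had 9.87 and 9.28 FPKM in etoposide against 5.51 and 8.81 FPKM in DMSO, with DMSO replicate 1 standing apart. MAX had 23.2 and 24.7 FPKM in etoposide against 23.2 and 19.3 FPKM in DMSO.

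Of 11 apoptosis genes known as E2F1 targets, 6 were higher in both etoposide libraries and 2 lower in both (28.9% and 19.0% of all genes were), with a median of 0.13. PMAIP1, which encodes the BH3-only protein NOXA, had 7.16 and 7.79 FPKM in etoposide against 3.66 and 4.82 FPKM in DMSO (log2 fold change 0.82, limma adjusted p = 0.269). HRK, also BH3-only, had 0.361 and 0.425 FPKM in etoposide against 0.224 and 0.245 FPKM in DMSO. APAF1, the apoptosome scaffold, had 4.43 and 4.08 FPKM in etoposide against 2.61 and 3.85 FPKM in DMSO.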
